A study of Mus musculus with 16 samples.

Results

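The hormone genes of fat cells Lep, Adipoq, Retn, Rbp4, Cfd, Apln and Angptl4 were followed across 16 microarrays of mouse white adipose tissue. The members were all probe sets that the platform's probe table assigns to 1 of these symbols and to no other gene. Of the 7 genes, 6 had such a probe set, and they held 7 probe sets of the 34945 with a single symbol. Angptl4 had 2 probe sets, the other members 1 each, and Cfd, the gene of adipsin, was not analysed here. Of the 18193 genes with a probe set, 12078 were tested, and 5 of the 6 measured members were among them. Apln was too dim for the test.

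The mice were C57BL6/J, and the 4 groups of 4 arrays crossed the Sirt1 genotype with the diet. Sirt1 encodes a deacetylase that depends on NAD. In the knockout groups it was deleted by a FABP4-cre transgene, whose promoter comes from a fatty acid binding protein of adipocytes and can also be active in other cells. The wild types had no transgene (Cre "None" in the labels), so that effects of Cre and of Sirt1 loss cannot be told apart. The diets, low or high in fat, began at 4 weeks of age and lasted 8 weeks, which puts the end at 12 weeks. Below, the groups are called low fat wild types, low fat knockouts, high fat wild types and high fat knockouts. The labels give no depot, and they do not say that the samples of a group were separate mice, so p-values measure the spread between samples, which may be partly technical. Values are log2 expression, so that a difference of 1 is a doubling of the signal.

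Fat cells are endocrine cells. Leptin signals the size of the fat stores to the brain, adiponectin promotes insulin sensitivity in liver and muscle, and its blood level is usually low in obesity. Resistin and retinol-binding protein 4 have been linked to insulin resistance in mice, apelin is a ligand of a G protein-coupled receptor on vascular cells, and angiopoietin-like 4 inhibits lipoprotein lipase, the enzyme that lets fat cells take up circulating triglyceride.

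The stretches just upstream of the transcription start are shown for the tested members called by their brightest probe set, Lep, Retn and Rbp4. Adipoq, which was called in none of the comparisons, is shown beside them. They are 250 bases of RefSeq sequence each, on build GRCm38.p6, with the last base adjacent to the start. Lep lies on the plus strand of chromosome 6 (chr6:29059971-29060220), Adipoq on the plus strand of chromosome 16 (chr16:23146286-23146535) and Retn on the plus strand of chromosome 8 (chr8:3655520-3655769). Rbp4 lies on the minus strand of chromosome 19 and has 2 annotated starts, with windows at chr19:38125322-38125571 (upstream) and chr19:38124812-38125061 (downstream). The Angptl4 gene lies at chr17:33774900-33781575, Apln at chrX:48025146-48034853 and Cfd at chr10:79890853-79892655. Capitals mark the motifs found on either strand among 6 that were searched.
Lep: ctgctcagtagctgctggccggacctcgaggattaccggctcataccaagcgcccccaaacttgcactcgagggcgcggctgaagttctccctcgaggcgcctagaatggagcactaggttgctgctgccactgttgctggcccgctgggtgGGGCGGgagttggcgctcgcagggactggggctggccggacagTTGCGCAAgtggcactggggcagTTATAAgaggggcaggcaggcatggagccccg
Adipoq: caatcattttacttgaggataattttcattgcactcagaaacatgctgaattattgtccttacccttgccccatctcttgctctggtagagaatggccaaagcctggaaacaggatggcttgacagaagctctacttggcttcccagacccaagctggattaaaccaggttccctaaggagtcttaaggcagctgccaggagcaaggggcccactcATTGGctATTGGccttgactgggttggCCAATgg
Retn: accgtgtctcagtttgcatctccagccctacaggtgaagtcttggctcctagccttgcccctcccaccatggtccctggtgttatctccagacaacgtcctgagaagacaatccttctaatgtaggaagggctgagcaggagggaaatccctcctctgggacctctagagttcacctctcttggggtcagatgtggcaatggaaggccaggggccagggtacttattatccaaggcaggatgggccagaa
Rbp4 upstream start: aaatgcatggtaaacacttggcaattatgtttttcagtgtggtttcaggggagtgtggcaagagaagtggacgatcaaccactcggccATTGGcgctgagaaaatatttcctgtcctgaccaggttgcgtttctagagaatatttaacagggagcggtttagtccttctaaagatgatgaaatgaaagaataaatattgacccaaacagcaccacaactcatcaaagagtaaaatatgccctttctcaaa
Rbp4 downstream start: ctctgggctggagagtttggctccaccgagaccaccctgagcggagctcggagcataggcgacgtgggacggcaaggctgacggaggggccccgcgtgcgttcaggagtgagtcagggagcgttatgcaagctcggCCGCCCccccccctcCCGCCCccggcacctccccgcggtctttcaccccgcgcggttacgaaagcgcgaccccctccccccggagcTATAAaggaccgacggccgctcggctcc

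The motifs searched were TATAA, the core of the TATA box, CCAAT, a promoter box, GGGCGG, the GC box, TTGCGCAA, a palindrome bound by C/EBP factors, AGGTCA, a nuclear receptor element, and CACGTG, an E-box. The Lep window held TTGCGCAA 55 bases before the start. This match was found in 0.164% of 32851 windows of the same length upstream of annotated gene starts. The Lep window also held TATAA on both strands at overlapping letters, 31 and 32 bases before the start, and GGGCGG at 98 bases. TATAA occurs in 22.8% of the windows and GGGCGG in 32.7%. The Adipoq window held CCAAT at 7 bases on the coding strand and at 27 and 34 bases on the opposite strand (33.8% of windows hold it). The downstream Rbp4 window held TATAA at 28 bases and GGGCGG on the opposite strand at 99 and 114 bases, and the upstream window held CCAAT on the opposite strand at 162 bases. The Retn window held none of the 6. AGGTCA (14% of windows) and CACGTG (6.02%) were not found in any of these 5 windows. The Lep window and the downstream Rbp4 window were rich in G and C (65.6% and 70.8%), against a median of 52.4% over all windows, and the Retn window, at 54.8%, was near it.

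The tissue was checked against markers of its cell types. All 12 mature adipocyte markers measured were well expressed, and their mean log2 value lay between 11.76 and 12.24 on every array. Markers of liver and of mammary epithelium were low on average, with a mean of at most 5.55 and with Fgb, Tat, Csn2, Elf5, Krt14, Lalba and Wap under 4 on all arrays. Alb, Ttr, Apoa1, Apoa2, Krt8 and Krt18 were bright enough to be tested. Alb was lower with the diet in knockouts (-2.05, limma adjusted p = 0.0188) and Apoa1 in wild types (-1.73, adjusted p = 0.00953). Krt18 was lower in knockouts on high fat (-2.67, adjusted p = 0.0378), and none of them passed the test as higher. Skeletal muscle transcripts were high on 5 arrays (Tnnt3 at a log2 value of 8 or more), at least 1 in each group. In low fat wild types these were replicates 3 and 4, and in low fat knockouts replicate 2. On high fat they were replicate 3 of the wild types and replicate 4 of the knockouts. The arrays of replicate 1 in both high fat groups stood apart at the bright end of the scale: of 520 genes with a mean of 12 or more, 47.5% had their lowest value of the group on the wild-type array and 56.9% on the knockout array. The Sirt1 probe set did not pass the test between the genotypes (-0.19 on low fat, adjusted p = 0.498; -0.22 on high fat, adjusted p = 0.448). It is unknown here whether this probe set covers the deleted stretch, so its signal does not check the genotype labels.

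To read the counts of calls that follow, a gene is called where its adjusted p is under 0.05. Of the 12078 genes tested, 20.5% were called higher and 15.2% lower with the diet in wild types, and 15.6% and 13.5% in knockouts. Between the genotypes, 11.7% were called higher and 7.24% lower in low fat knockouts, and 8.58% and 6.47% in high fat knockouts. For the interaction of diet and genotype, 5.12% were positive and 7.87% negative. Without the 5 muscle arrays, 21.3% of all genes were called with the diet in wild types, in place of 35.6%. Between the genotypes on low fat 7% were called, in place of 18.9%. For a call lost without these arrays, fewer samples and the removal of muscle transcripts cannot be told apart. The median log2 difference of all genes was 0.04, -0.02, 0.04, 0.00263 and -0.01 in these 5 comparisons, in the order diet in wild types, diet in knockouts, genotype on low fat, genotype on high fat and interaction. The lists of related genes below were described by their counts and medians beside these values and were not tested as sets.

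**Figure D1:**
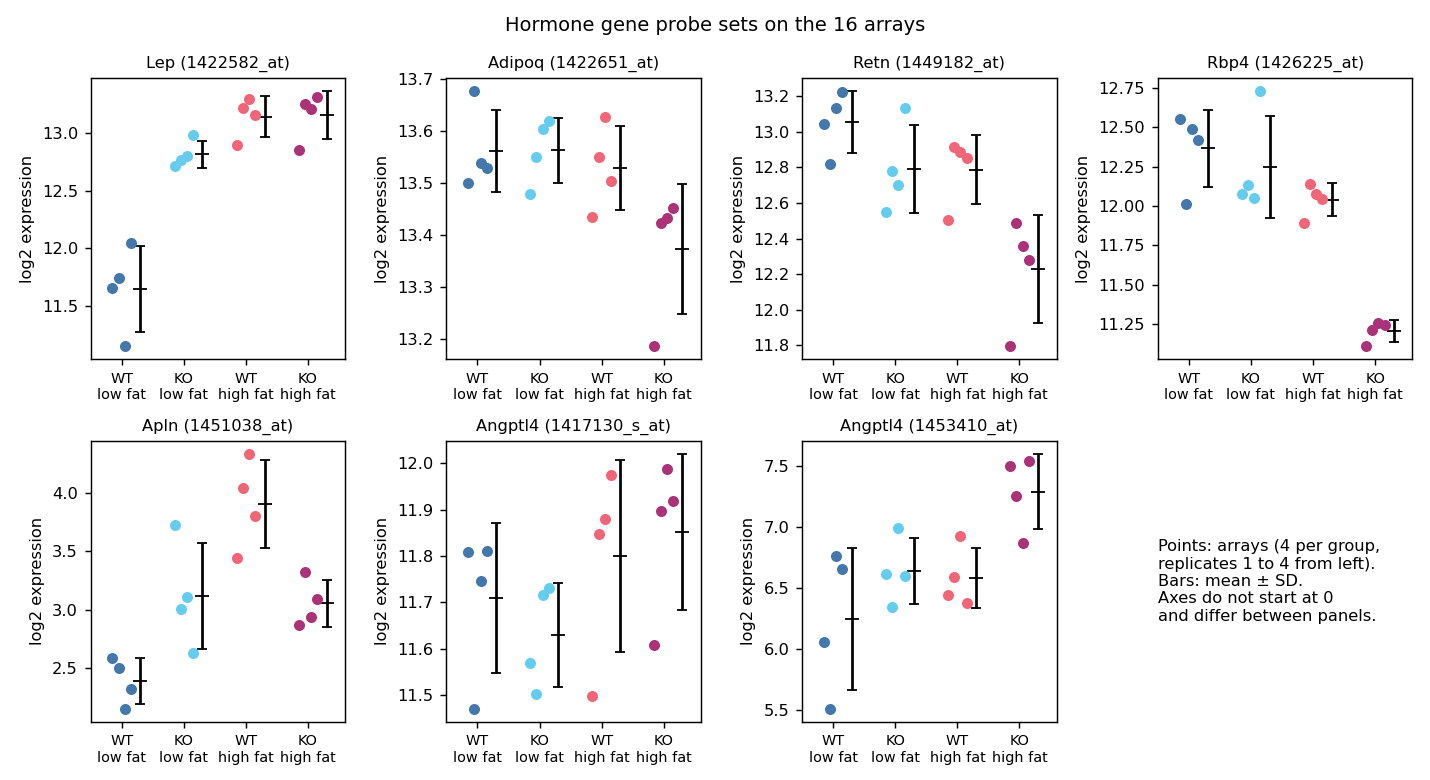
Log2 expression of the 7 member probe sets (panels) in the 4 groups on the horizontal axis; points are arrays, in the order of replicates 1 to 4, and bars are mean ± SD. Lep was lowest in low fat wild types (11.15 to 12.05) and Rbp4 lowest in high fat knockouts (11.11 to 11.26), each apart from the other 3 groups.

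Lep, the gene of leptin, was higher in every group than in low fat wild types. The 4 wild-type arrays on low fat read 11.66, 11.74, 11.15 and 12.05, and the 4 wild-type arrays on high fat read 12.89, 13.22, 13.30 and 13.16. Knockouts read 12.71, 12.77, 12.80 and 12.98 on low fat. On high fat knockouts read 12.85, 13.25, 13.21 and 13.31. The lowest value of each of these 3 groups was above the highest wild-type value on low fat. The 2 high fat groups overlapped almost wholly.

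With high fat feeding Lep rose in wild types by 1.49 on the log2 scale, a 2.81-fold change (SE 0.17, limma adjusted p = 8.9e-06). Between the genotypes on low fat it was higher in knockouts by 1.17, a 2.25-fold difference (SE 0.17, adjusted p = 0.000199). In knockouts the diet difference was 0.34 with a 95% confidence interval from -0.01 to 0.69, which did not pass the test (adjusted p = 0.138). Between the genotypes on high fat the difference was 0.01, with an interval from -0.34 to 0.36 (adjusted p = 0.969). The diet response was smaller in knockouts than in wild types by 1.15 (SE 0.23, interaction adjusted p = 0.00524). All 3 Lep calls held in every alternative run, with the diet difference in wild types between 1.33 and 1.63. In the order of the group means, wild type on low fat was followed by knockout on low fat, wild type on high fat and knockout on high fat. Only the first step passed the test, and the step from knockout on low fat to wild type on high fat was 0.33 (adjusted p = 0.288). In whole tissue, fewer cells of a type and less RNA per cell cannot be told apart, and this holds for every value here. Of 9 markers of progenitors and stroma, 5 were called higher with the diet in wild types and 4 between the genotypes on low fat, and none lower. Their mean was 10.26 to 10.64 in low fat wild types, 10.62 to 11.32 in low fat knockouts, and 11.13 to 11.23 and 10.90 to 11.04 in high fat wild types and high fat knockouts. Of 13 macrophage markers, 8 and 2 were called higher in the same comparisons and none lower, and their mean was 8.15 to 8.52 in low fat wild types, 8.73 to 9.12 in low fat knockouts and 9.04 to 9.95 in high fat wild types, with no overlap with low fat wild types. The part of stroma and macrophages in the Lep result was not tested.

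The genes whose signal followed Lep most closely over the 16 arrays were Bet1 (r = 0.97), Fmr1 (r = 0.969) and Mdfic (r = 0.969), where the points share the group differences. Bet1 encodes a SNARE protein of transport from the endoplasmic reticulum to the Golgi, Fmr1 an RNA-binding protein of translation, and Mdfic an inhibitor of MyoD family factors.

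Leptin acts through its receptor Lepr, JAK2 and STAT3, and is curbed by SOCS3 and phosphatases. Of 13 genes of leptin signalling tested, 2 rose and 4 fell with high fat feeding in wild types, and 1 rose in knockouts. Between the genotypes 1 was lower in low fat knockouts, and 1 was higher and 1 lower in high fat knockouts. Their median difference was between -0.07 and 0.05 in all 5 comparisons, close to that of all genes tested (between -0.02 and 0.04), and none was called for the interaction. Lepr rose with the diet in wild types by 0.82 (SE 0.24, adjusted p = 0.0127). That call was lost when all probe sets of the gene were averaged (0.30, adjusted p = 0.0827) and without the 5 muscle arrays (0.50, adjusted p = 0.175). Irs2, an adaptor of insulin and leptin receptors, fell by 0.69 with the diet in wild types (adjusted p = 0.00846) and was lower in low fat knockouts by a log2 difference of -0.90 (adjusted p = 0.00345). Ptpn1, the phosphatase PTP1B that ends JAK2 signalling, rose by 0.64 with the diet in knockouts (adjusted p = 0.00493). It was also higher in high fat knockouts than in high fat wild types by 0.66 (adjusted p = 0.00807). That genotype call was lost without replicate 1 of both high fat groups (0.54, adjusted p = 0.0843).

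Adipoq, the gene of adiponectin, differed by at most 0.19 in log2 value between any pair of groups, and lay at 13.19 to 13.68, near the top of the deposited scale (14.2). Wild types read 13.50, 13.68, 13.54 and 13.53 on low fat and 13.43, 13.55, 13.63 and 13.50 on high fat. Knockouts read 13.48, 13.55, 13.60 and 13.62 on low fat and 13.19, 13.42, 13.43 and 13.45 on high fat. All 4 arrays of high fat knockouts were lower than all arrays of both low fat groups, and the other groups overlapped. With the diet in knockouts the difference was -0.19, with an interval from -0.39 to 0.01, which did not pass the test (SE 0.09, adjusted p = 0.142). It did pass with a trended, robust variance (adjusted p = 0.0491) and without moderation of the variance (adjusted p = 0.0435). The diet difference in wild types was -0.03 with an interval from -0.23 to 0.17. The genes most like Adipoq over the 16 arrays were Chd7 (r = 0.929), a chromatin remodeller, Cxcl13 (r = 0.914), a B cell chemokine, and Kif1b (r = 0.911), a kinesin.

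Because Lep and Adipoq are read on the same array, a shift common to the whole array cancels in their log2 difference. The change of Lep minus Adipoq between groups was 1.52 with the diet in wild types and 1.16 between the genotypes on low fat, and every array of the second group was above every array of the first (two-sided exact permutation test, 4 against 4, adjusted p = 0.0381 over 4 comparisons for each). In knockouts the change with the diet was 0.53, and again the groups did not overlap (exact permutation test, adjusted p = 0.0381). Between the genotypes on high fat it was 0.17 (exact permutation test, adjusted p = 0.0857). The smallest unadjusted p this design can give is 0.0286. The difference shows unequal change of the pair and not which gene moved. Adipoq lay near the top of the scale, where saturation can shrink differences, so the size of these changes is limited by it.

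Of 8 genes of adiponectin receptors and assembly tested, 1 fell with the diet in wild types, 1 rose and 1 fell in knockouts, and none was called between the genotypes or for the interaction. The median of the 8 was 0.06, -0.30, -0.01, -0.23 and -0.17 in the 5 comparisons. Adipor2, a receptor that signals to fatty acid oxidation, was the gene that fell. It fell by 0.39 in wild types (adjusted p = 0.00502). In knockouts it fell by 0.47, from 11.38 ± 0.13 to 10.91 ± 0.11 (adjusted p = 0.00158). The wild-type call was lost without the 5 muscle arrays (-0.35, adjusted p = 0.12). Erp44, a chaperone that retains adiponectin in the secretory pathway, was the gene called higher in knockouts, by 0.46 (adjusted p = 0.0181). That call was lost when its probe sets were averaged (0.14, adjusted p = 0.325), without knockout low fat replicate 2 (0.40, adjusted p = 0.0606), without knockout high fat replicate 2 (0.42, adjusted p = 0.0509) and without the 5 muscle arrays (0.39, adjusted p = 0.149).

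Retn, the gene of resistin, was lowest in high fat knockouts. Wild types read 13.04, 12.82, 13.13 and 13.22 on low fat and 12.50, 12.91, 12.89 and 12.85 on high fat. Knockouts read 12.55, 12.78, 12.70 and 13.14 on low fat and 11.80, 12.49, 12.36 and 12.28 on high fat. The knockout high fat arrays were below all arrays of the other 3 groups, which overlapped with each other. With high fat feeding Retn fell in knockouts by 0.56 on the log2 scale, to 0.677 of its level (SE 0.16, adjusted p = 0.0164). On high fat it was lower in knockouts than in wild types by the same amount, a log2 difference of -0.56 (SE 0.16, adjusted p = 0.0301). In wild types the diet difference was -0.27 (interval -0.61 to 0.08, adjusted p = 0.217). The diet responses of the genotypes were not shown to differ (interaction -0.30, adjusted p = 0.412).

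Both Retn calls were lost in some of the runs that left out 1 array, which also lowers the number of samples. The diet call in knockouts was lost without knockout low fat replicate 4 (-0.45, adjusted p = 0.0517), without knockout high fat replicate 1 (-0.42, adjusted p = 0.0591) and without the 5 muscle arrays (-0.58, adjusted p = 0.0864). The genotype call on high fat was lost without wild-type high fat replicate 2 (-0.52, adjusted p = 0.073), 3 (-0.53, adjusted p = 0.082) or 4 (-0.54, adjusted p = 0.066). It was also lost without knockout high fat replicate 1 (-0.41, adjusted p = 0.107) or 4 (-0.57, adjusted p = 0.054). The same held without replicate 1 of both high fat groups (-0.51, adjusted p = 0.0615) and without the muscle arrays (-0.54, adjusted p = 0.167). Of these values, that without knockout high fat replicate 1 lay furthest from the -0.56 of all arrays. The genes most like Retn were Il6st (r = 0.942), the shared signal-transducing receptor of the interleukin 6 family, Gna11 (r = 0.935), a G protein subunit, and Scamp1 (r = 0.934), a secretory carrier membrane protein.

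Of 4 related genes tested, 2 rose with the diet in wild types, 1 rose and 1 fell in knockouts, and 1 was lower in high fat knockouts than in high fat wild types and negative for the interaction. The median was 0.30, -0.00412, 0.15, -0.29 and -0.17 in the 5 comparisons. Retnla, the resistin-like protein made by alternatively activated macrophages among other cells, read 12.67 ± 0.30 in low fat wild types and 13.02 ± 0.10 in low fat knockouts. On high fat it read 13.12 ± 0.02 in wild types and 12.39 ± 0.14 in knockouts (n = 4). It fell with the diet in knockouts by 0.63 (adjusted p = 0.00192) and was lower than in high fat wild types by a log2 difference of -0.73 (adjusted p = 0.00169), and the interaction was -1.08 (adjusted p = 0.00187). Macrophage markers, whose values are given with Rbp4, were highest in high fat knockouts, where Retnla was lowest. The part of macrophages in the Retnla values was not tested. The rise of Retnla by 0.45 in wild types (adjusted p = 0.0147) was lost when the groups compared were fitted alone (adjusted p = 0.0606), with arrays centred on their median (adjusted p = 0.054) and without the muscle arrays (adjusted p = 0.0623). Cap1, which encodes a protein reported to bind resistin, rose with the diet by 1.01 in wild types and 0.98 in knockouts (adjusted p = 0.0247 and 0.0351). The wild-type Cap1 call was lost in 6 of 31 alternatives and the knockout call in 7 of 31, among them leaving out, in wild types, replicate 1 or 3 of the low fat group (adjusted p = 0.0531 and 0.0836) or replicate 2 or 4 of the high fat group (adjusted p = 0.0694 and 0.0581). In knockouts it was lost without replicate 3 or 4 of the low fat group (adjusted p = 0.0766 and 0.0991) and without replicate 2, 3 or 4 of the high fat group (adjusted p = 0.067, 0.0917 and 0.104).

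Rbp4, the gene of the carrier that brings retinol from stores into blood, stood apart in high fat knockouts. Wild types read 12.55, 12.01, 12.49 and 12.42 on low fat and 11.89, 12.14, 12.08 and 12.05 on high fat. Knockouts read 12.07, 12.14, 12.05 and 12.73 on low fat and 11.11, 11.21, 11.26 and 11.25 on high fat. The 4 knockout high fat arrays were tightly grouped and below each of the other 12 arrays. Rbp4 fell with high fat feeding in knockouts by 1.04, to 0.486 of its level (SE 0.15, adjusted p = 9.72e-05). On high fat it was lower in knockouts than in wild types by a log2 difference of -0.83, a ratio of 0.561 (SE 0.15, adjusted p = 0.00179). Both calls held in each of 31 alternatives, with the diet difference between -1.11 and -0.88 and the genotype difference between -0.88 and -0.80.

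In wild types the diet difference of Rbp4 was -0.33, with an interval from -0.65 to -0.01 and an adjusted p of 0.104. That value passed the test with arrays centred on their median (-0.41, adjusted p = 0.0314), without replicate 2 of the low fat wild types (-0.45, adjusted p = 0.0245) and without replicate 4 of the low fat knockouts (adjusted p = 0.0391). On low fat the genotype difference was -0.12 (adjusted p = 0.616). The interaction was -0.71 (SE 0.21, adjusted p = 0.0379), and this call was lost in 12 of 30 alternatives. Among these were leaving out knockout low fat replicate 2 (adjusted p = 0.0508), wild-type high fat replicate 2 (adjusted p = 0.0677), 3 (adjusted p = 0.0721) or 4 (adjusted p = 0.0572), and knockout high fat replicate 1 (adjusted p = 0.0728), 2 (adjusted p = 0.0585), 3 (adjusted p = 0.056) or 4 (adjusted p = 0.0567). In the order of the group means, knockout on high fat was followed by wild type on high fat, knockout on low fat and wild type on low fat, and only the first step passed the test, as for Retn.

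Markers of other cell types differed between the same groups as Rbp4 and Retn. On high fat, 7 of 13 macrophage markers were called higher and none lower in knockouts than in wild types, and the mean over all 13 was 9.04 to 9.95 in wild types and 10.43 to 10.65 in knockouts. All 8 mesothelial markers were called lower, with a mean of 8.14 to 9.04 in wild types and 6.58 to 7.74 in knockouts. Of the 12 mature adipocyte markers 1 was called higher and none lower, with a mean of 11.81 to 12.05 and 11.76 to 12.03. None of the 21 macrophage and mesothelial markers was under a log2 value of 4 on all arrays. Of 11 endothelial markers 5 were called lower and none higher, with a mean of 9.43 to 9.61 in wild types and 8.74 to 9.22 in knockouts. Of 9 markers of progenitors and stroma 1 was called lower and none higher, with a mean of 11.13 to 11.23 and 10.90 to 11.04. The part of these cell types in the Rbp4 and Retn results was not tested.

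The genes most like Rbp4 over the 16 arrays were Eci3 (r = 0.96), a peroxisomal enzyme of fatty acid oxidation, Cyp2e1 (r = 0.943), a cytochrome P450, and Mccc1 (r = 0.943), a subunit of the enzyme that breaks down leucine. With the diet in knockouts, Eci3 fell by 2.97, Cyp2e1 by 1.52 and Mccc1 by 0.64. These genes were chosen by their likeness to Rbp4 on the same arrays, so their fall beside it is not a separate result.

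Among 9 genes of retinol transport and handling tested, 2 rose and 1 fell with the diet in wild types, and 1 rose and 2 fell in knockouts. Between the genotypes, 2 were higher and 1 lower in low fat knockouts, and 1 was higher and 2 were lower on high fat. For the interaction 1 was positive and 1 negative, and the median was 0.23, -0.22, 0.36, -0.29 and -0.45 in the 5 comparisons. Stra6l, which encodes a receptor for RBP4 related to STRA6, was the gene that moved opposite to Rbp4. It read 2.37 ± 0.17 in low fat knockouts and 5.73 ± 0.57 on high fat, while wild types read 1.87 ± 0.33 and 3.28 ± 0.95 (n = 4). The difference of Stra6l with the diet in knockouts was 3.36, or 1.73 with values under 4 set to 4. Its low end lies in the range where background correction sets the values. Without the high fat knockouts Stra6l would not have passed the filter on dim genes. No p-value is therefore given for it, although the counts above include it. On high fat it was higher in knockouts than in wild types by 2.45, or by 1.63 with the floor. The interaction was 1.95. Its call was lost without moderation of the variance, without the muscle arrays and without replicate 1 of both high fat groups (1.36). The call of its rise of 1.41 in wild types was lost with the floor (0.10) and without the muscle arrays (1.42).

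Aldh1a2, an enzyme that makes retinoic acid, differed in direction between the genotypes. It read 6.69 ± 0.59 in low fat wild types and 7.05 ± 0.47 in low fat knockouts, and 7.61 ± 0.21 and 6.02 ± 0.25 on high fat (n = 4). With the diet it rose by 0.92 in wild types (adjusted p = 0.0132) and fell by 1.03 in knockouts (adjusted p = 0.0085), with an interaction of -1.95 (adjusted p = 0.00389). The wild-type call was lost without the muscle arrays (0.64, adjusted p = 0.104). Aldh1a2 is also made by mesothelial cells, whose markers were lower in the same group as given above, and their part in it was not tested. Rbp7, a retinol-binding protein inside cells, fell with the diet by 0.67 in wild types (adjusted p = 0.00236) and was lower in knockouts on low fat by a log2 difference of -0.59 (adjusted p = 0.0109). Both calls were lost without the muscle arrays (-0.45 and -0.37, adjusted p = 0.137 and 0.308), and the genotype call also when the groups compared were fitted alone (adjusted p = 0.054). Its group means were 12.36 in low fat wild types, 11.77 in low fat knockouts, 11.69 in high fat wild types and 11.23 in high fat knockouts.

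Apln, the gene of apelin, was close to the lower end of the scale and reached a log2 value of 4 on only 2 arrays, both of high fat wild types, which is why it was not tested. Wild types read 2.59, 2.51, 2.15 and 2.33 on low fat and 3.44, 4.04, 4.33 and 3.80 on high fat. Knockouts read 3.72, 3.01, 3.11 and 2.63 on low fat and 2.87, 3.32, 2.94 and 3.10 on high fat. The wild-type low fat arrays were below all others, and those of high fat wild types were above all other arrays but 1, of low fat knockouts (3.72), which exceeded 1 of them. The difference with the diet was 1.51 in wild types and -0.06 in knockouts. Without the filter on dim genes, limma gave an adjusted p of 0.000107 for the diet in wild types and 0.0184 for the genotype difference on high fat (-0.85). It gave 0.0356 for the genotype difference on low fat (0.72), 0.00506 for the interaction (-1.57) and 0.0236 for high fat knockouts against low fat wild types (0.66). With values under 4 set to 4 the first 2 differences were 0.09 and -0.09 and that on low fat was 0, so that their size rests on values in the background range. The mean over 11 endothelial markers was 9.43 to 9.61 in high fat wild types and 8.74 to 9.28 in the other 3 groups, and its part in the Apln values was not tested.

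Of 4 other genes of the apelin system tested, 2 rose with the diet in wild types and 1 in knockouts, and 2 were higher in low fat knockouts. None was called on high fat between the genotypes, 1 was negative for the interaction, and the median was 0.56, -0.05, 0.55, -0.07 and -0.62. Aplnr, the apelin receptor, rose with the diet by 1.84 in wild types (SE 0.20, adjusted p = 7.61e-06) and by 0.86 in knockouts (adjusted p = 0.00418). It read 9.93 ± 0.31 and 11.77 ± 0.22 in wild types, and 10.75 ± 0.41 and 11.61 ± 0.23 in knockouts (n = 4). On low fat the knockout was higher by 0.82 (adjusted p = 0.0101), which was lost without the muscle arrays (0.50, adjusted p = 0.197). The interaction of -0.98 (adjusted p = 0.0329) was lost in 11 of 30 alternatives, 8 of which left out 1 array. These arrays were replicate 3 of the low fat wild types (adjusted p = 0.061), replicates 1 and 2 of the low fat knockouts (0.0724 and 0.0687), replicates 1 and 3 of the high fat wild types (0.0634 and 0.0683) and replicates 1, 2 and 3 of the high fat knockouts (0.0629, 0.0548 and 0.0642).

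Angptl4, the inhibitor of lipoprotein lipase that is induced by fasting, was not called in any comparison by its brighter probe set (1417130_s_at). That probe set read 11.81, 11.47, 11.75 and 11.81 in low fat wild types and 11.50, 11.85, 11.88 and 11.98 on high fat. Knockouts read 11.57, 11.50, 11.72 and 11.73 on low fat and 11.61, 11.90, 11.99 and 11.92 on high fat. The groups overlapped in all comparisons, and the largest difference was 0.22 with the diet in knockouts, with an interval from -0.05 to 0.49 (adjusted p = 0.206). That difference passed the test with array weights (0.32, adjusted p = 0.00912), where 44.3% of all genes were called.

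The dimmer Angptl4 probe set (1453410_at) gave larger differences. It read 6.06, 5.51, 6.76 and 6.65 in low fat wild types and 6.61, 6.34, 6.99 and 6.60 in low fat knockouts. On high fat it read 6.44, 6.59, 6.92 and 6.37 in wild types and 7.50, 7.25, 6.86 and 7.54 in knockouts. Of the 4 high fat knockout arrays, 3 were above every array of the other groups. The difference with the diet in knockouts was 0.65 (adjusted p = 0.0549) and that between the genotypes on high fat 0.71 (adjusted p = 0.064), adjusted over the 21660 probe sets tested. Only the difference between high fat knockouts and low fat wild types passed, at 1.04 (adjusted p = 0.00206), where the brighter probe set gave 0.14 (adjusted p = 0.377). With the mean of both probe sets Angptl4 was called for the diet in knockouts (0.44, adjusted p = 0.039). The genes most like the brighter probe set were Sec31a (r = 0.899), a coat protein of secretory vesicles, Lmna (r = 0.886), a nuclear lamin, and Ywhah (r = 0.88), a 14-3-3 protein.

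Around lipoprotein lipase, 4 of 16 genes tested rose and 3 fell with the diet in wild types, and 3 rose and 2 fell in knockouts. Between the genotypes 2 were higher and 2 lower in low fat knockouts, and 1 was higher and 2 were lower on high fat. For the interaction 2 were positive and 1 negative, and the median was between -0.11 and 0.07 in the 5 comparisons. Apoc2, the apolipoprotein that activates the lipase, fell by 1.48 with the diet in wild types (adjusted p = 0.000207) and rose by 1.03 in knockouts (adjusted p = 0.00388). Apoc3, an apolipoprotein that inhibits it, fell by 4.76 in wild types (adjusted p = 1.69e-06). Pcsk6, a proprotein convertase that can cleave the lipase, fell by 1.74 with the diet in knockouts (adjusted p = 1.85e-05).

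**Figure D2:**
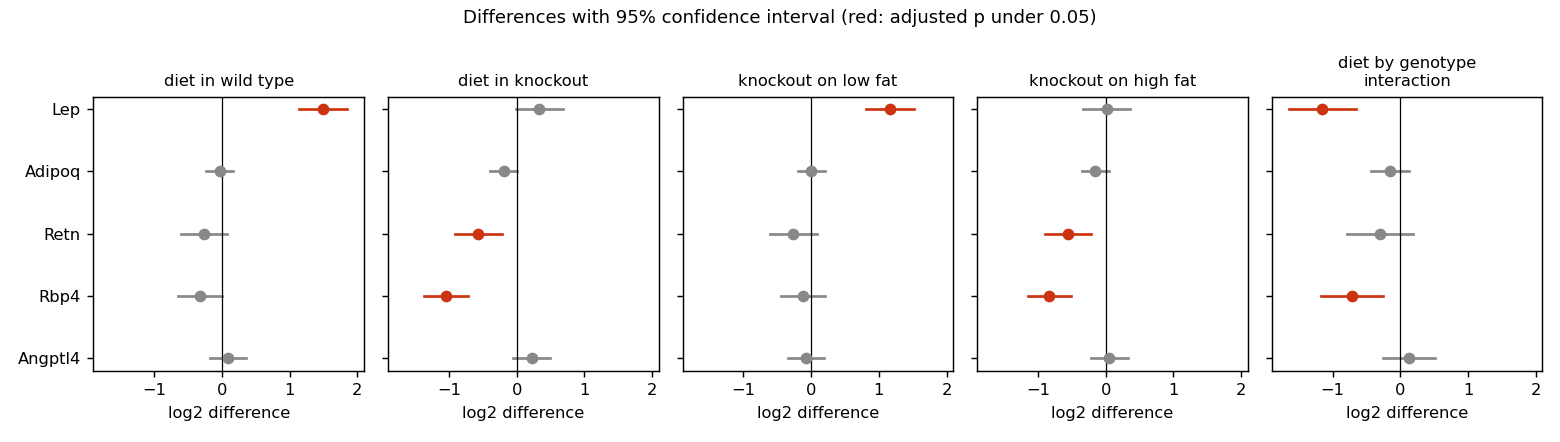
Log2 differences of the 5 tested members with 95% confidence intervals (horizontal axis) for the 5 comparisons (panels); red marks an adjusted p under 0.05. Lep is called in the comparisons against low fat wild types, at 1.49 and 1.17, and Retn and Rbp4 in the pairwise comparisons of high fat knockouts, with Rbp4 at -1.04 and -0.83. For the interaction Lep and Rbp4 are called, at -1.15 and -0.71.

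Set side by side, the members divided by comparison. With the diet in wild types 1 of the 5 tested members was called, Lep, where 35.6% of all genes tested were called in either direction. With the diet in knockouts 2 were called, both lower, where 29.2% of all genes were called and 13.5% called lower. Between the genotypes on low fat 1 was called, again Lep, beside 18.9% of all genes. On high fat 2 were called lower, Retn and Rbp4, beside 15.1% called in either direction and 6.47% called lower. For the interaction 2 were called, Lep and Rbp4, both negative, beside 13% of all genes and 7.87% negative. With 5 genes these shares are coarse, and where Lep alone was called the share of members was near the background or below it. By groups that did not overlap, with the diet 1 member was wholly higher in wild types (17.7% of all genes were) and 3 were wholly lower in knockouts (15.5%), Adipoq, Retn and Rbp4. Between the genotypes 1 was wholly higher on low fat (11.8%) and 2 were wholly lower on high fat (11.5%). The median difference of the 5 was -0.03, -0.19, -0.08, -0.16 and -0.30 in the 5 comparisons. The diet comparison in wild types and the genotype comparison on low fat share their control arrays, and other pairs of comparisons share a group as well.

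Of the 5 tested members by their brightest probe sets, Lep, Retn and Rbp4 differed most between the extremes of the design. Between high fat knockouts and low fat wild types, Lep was higher by 1.51 (adjusted p = 2.04e-06), Retn lower by a log2 difference of -0.82 (adjusted p = 0.000601) and Rbp4 lower by -1.16 (adjusted p = 1.18e-05), and in each of the 3 the groups did not overlap. Of all genes 46.7% were called in that comparison, 25.5% higher and 21.2% lower, and 22.5% were wholly higher and 17% wholly lower. Adipoq was wholly lower too, at -0.19, without passing the test (adjusted p = 0.112). Between high fat wild types and low fat knockouts none of the 5 was called (4.3% of all genes were), and Lep, at 0.33, had the smallest unadjusted p, 0.0661.

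**Figure D3:**
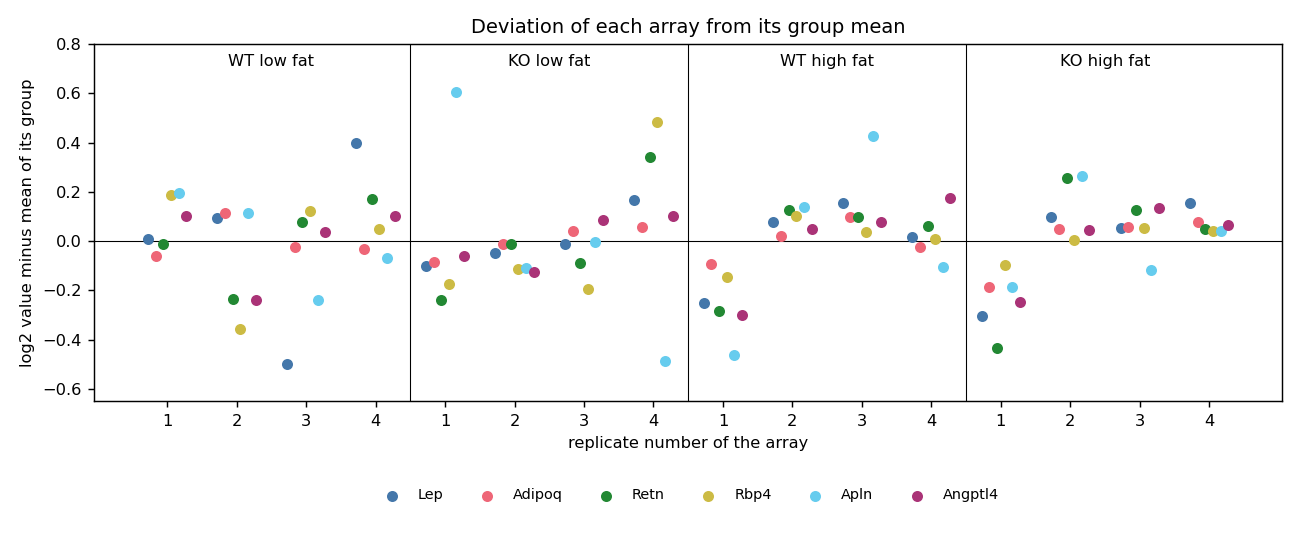
Deviation of each array's log2 value from the mean of its group (vertical axis) for the 6 measured members, by group and replicate number; Angptl4 is shown by its brighter probe set. On replicate 1 of both high fat groups all 6 members lie below 0 and at the lowest value of their group.

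On 2 arrays the deviations of all members within the group ran the same way. Replicate 1 of high fat wild types held the lowest value of its group for 6 of 6 members, and so did replicate 1 of high fat knockouts. Of the 520 bright genes, 47.5% and 56.9% were also lowest in their group on these arrays. On no other array were more than 3 of the 6 at the lowest value of the group. Without both arrays, Lep and Rbp4 kept their calls for the pairwise comparisons, and the Retn difference between genotypes on high fat and the Rbp4 interaction (adjusted p = 0.078) were no longer called. With arrays centred on the median of the bright genes, members left out, the Rbp4 interaction was lost (-0.67, adjusted p = 0.0534). The medians of all probe sets on these arrays were the lowest of the 16, at 4.344 and 4.345.

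Of the alternative complement pathway, in which adipsin cleaves factor B, 9 genes were tested in the absence of a measurement of Cfd itself. With the diet 6 rose and 1 fell in wild types, and 4 rose and 2 fell in knockouts. In knockouts 5 were higher and 1 lower on low fat, and 3 higher and 2 lower on high fat. Cfi was among the genes counted as higher with the diet in wild types (0.91) and in low fat knockouts (0.60). It was under 4 on all arrays of these comparisons, and both differences were 0 with values under 4 set to 4. For the interaction 1 was positive and 2 were negative, and the median was 0.86, 0.37, 0.56, -0.20 and -0.20 in the 5 comparisons. Cfb, factor B, the substrate of adipsin, read 9.80 ± 0.15 in low fat wild types, 10.87 ± 0.14 in low fat knockouts, and 11.49 ± 0.28 and 11.28 ± 0.08 in high fat wild types and high fat knockouts (n = 4). It rose with the diet in wild types by 1.69 (adjusted p = 5.26e-07) and was higher in low fat knockouts by 1.07 (adjusted p = 6.2e-05). Cfi, factor I, which inactivates C3b, read 5.98 ± 0.35 in high fat knockouts and was under 4 on every other array. The difference with the diet in knockouts was 2.90, or 1.98 with values under 4 set to 4. Cfi passed the filter on dim genes only through the arrays of high fat knockouts. No p-value is therefore given for it, although the counts above include it. C3ar1, the receptor of C3a on macrophages and other cells, rose by 1.52 in wild types and 2.48 in knockouts with the diet (adjusted p = 0.000588 and 1.17e-05). The mean over 13 macrophage markers was 8.15 to 8.52 in low fat wild types, 8.73 to 9.12 in low fat knockouts, 9.04 to 9.95 in high fat wild types and 10.43 to 10.65 in high fat knockouts, and their part in these complement values was not tested.

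**Figure D4:**
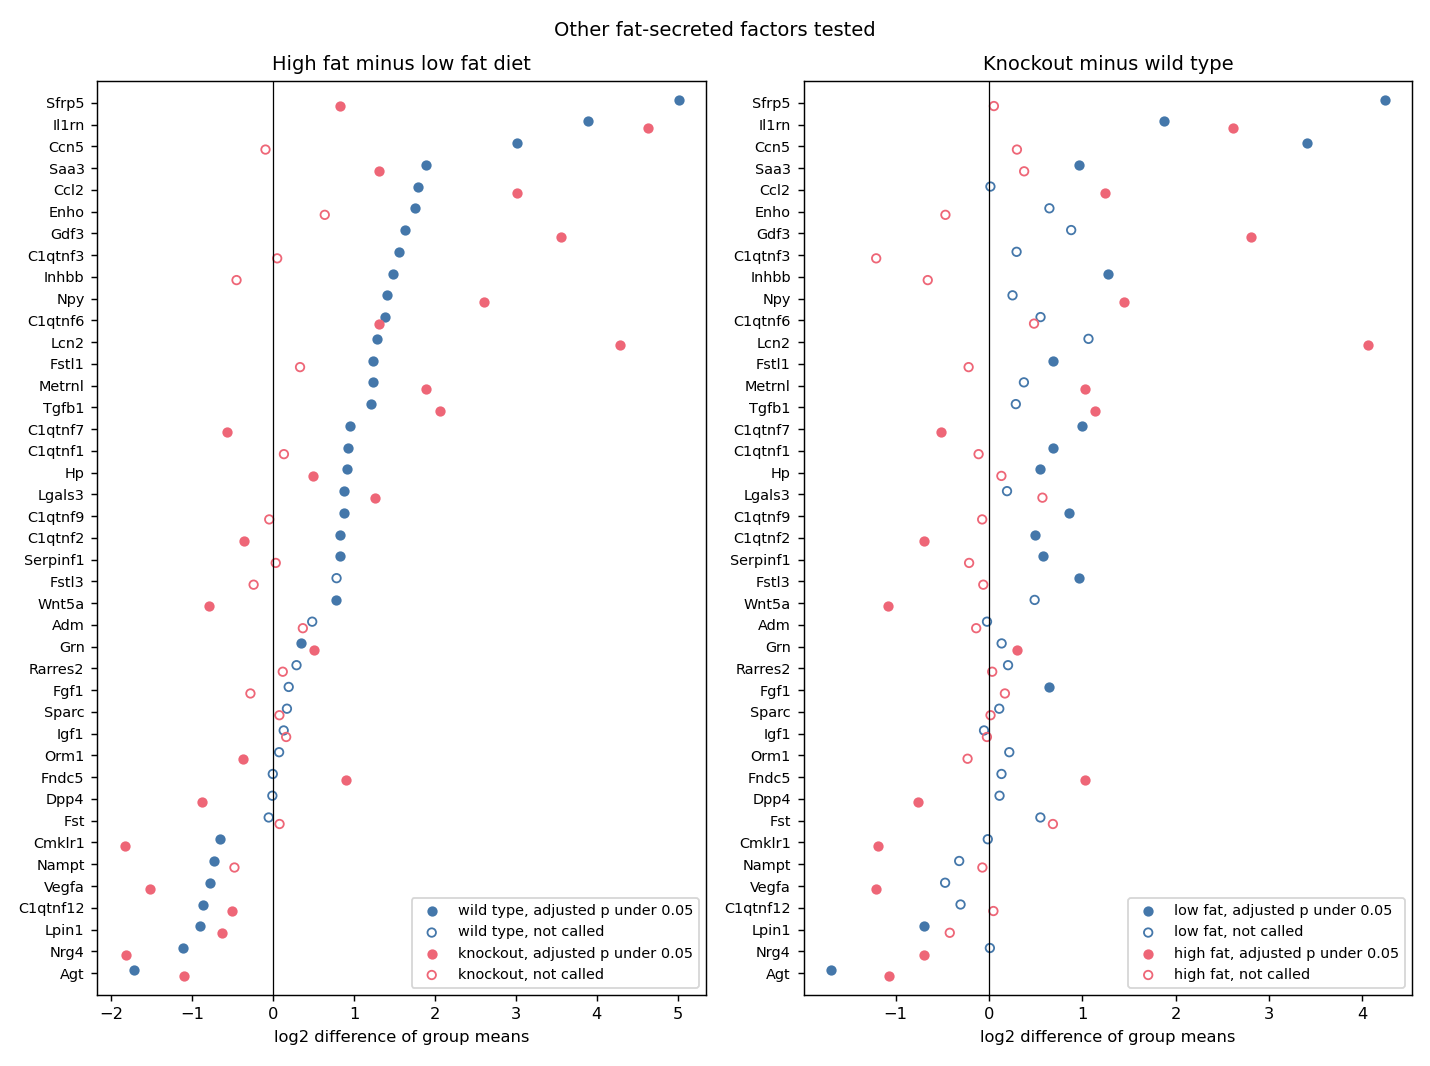
Log2 differences (horizontal axis) of the 41 other fat-secreted factors and their partners tested, ordered by the diet difference in wild types; left, high fat minus low fat diet in each genotype; right, knockout minus wild type on each diet. Filled points have an adjusted p under 0.05. Sfrp5 (5.01) and Il1rn (3.90) lead the rises in wild types, and Agt (-1.73) and Nrg4 (-1.12) the falls.

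Among 41 other fat-secreted factors and partners tested, 24 rose and 7 fell with the diet in wild types, and 14 rose and 11 fell in knockouts. On low fat 14 were higher and 2 lower in the knockout, and on high fat 9 were higher and 8 lower. For the interaction 2 were positive and 9 negative, and the median was 0.83, 0.08, 0.38, -0.02 and -0.42 in the 5 comparisons. Sfrp5, an inhibitor of Wnt signalling, had its lowest level in low fat wild types, like Lep, with a range of 6.68 to 7.37 there and of 10.57 to 12.15 in the other 3 groups. Lcn2, lipocalin 2, a siderophore-binding protein of inflamed fat, was highest in high fat knockouts, at 10.09 to 11.03, and lay at 4.21 to 7.14 in the other 3 groups. Agt, angiotensinogen, was lower in low fat knockouts than in low fat wild types by a log2 difference of -1.69 (adjusted p = 0.000914), which was lost without the muscle arrays (-1.25, adjusted p = 0.0541). Nrg4, a growth factor released by thermogenic fat, fell by 1.12 with the diet in wild types (adjusted p = 0.000146) and fell by 1.82 in knockouts (adjusted p = 2.96e-06). The mean over 8 brown and beige fat markers was 6.43 to 8.88 on low fat and 5.15 to 6.31 on high fat over both genotypes, and its part in the Nrg4 values was not tested. Cmklr1, the receptor of the adipokine chemerin, fell by 1.83 with the diet in knockouts (adjusted p = 4.86e-06), and Vegfa, the main growth factor of blood vessels, was lower in high fat knockouts than in high fat wild types by a log2 difference of -1.21 (adjusted p = 0.00149).

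Of 26 regulators of adipocyte hormone genes tested, 3 rose and 7 fell with the diet in wild types, and 2 rose and 7 fell in knockouts. Between the genotypes 1 was higher and 2 were lower in low fat knockouts, and 1 was higher on high fat. For the interaction 1 was positive, and the median was -0.13, -0.10, -0.04, -0.11 and -0.01 in the 5 comparisons. Ppara, a nuclear receptor of fatty acid oxidation, fell by 2.30 with the diet in wild types (adjusted p = 4.3e-05) and fell by 1.87 in knockouts (adjusted p = 0.000296). Pparg, the master regulator of adipocytes, was lower in low fat knockouts by a log2 difference of -0.72 (adjusted p = 0.0038), which was lost without the muscle arrays (-0.69, adjusted p = 0.0991). The diet difference of Pparg was -0.98 in wild types (adjusted p = 0.000155) and -0.40 in knockouts (adjusted p = 0.0584). E2f1, a cell cycle factor also active in adipocytes, rose with the diet by 1.43 in wild types and by 1.12 in knockouts (adjusted p = 1.25e-05 and 0.000109).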

How the data were processed

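Total RNA of 16 fat samples was hybridized to Affymetrix mouse arrays. Per the submitters' processing notes, the authors summarised each probe set to a log2 value with GCRMA (2.20.0, under R 2.11.1), with filters and batch steps not given in the sources used here. Groups came from the labels. The table of 45037 probe sets had 1 symbol for 34945, several for 932 and none for 9160. A gene stands for its brightest probe set with 1 symbol and was tested if at least 4 arrays reached a log2 value of 4. limma 3.58.1 (R 4.3.3) fitted a mean for each group to all 16 arrays and gave moderated two-sided tests, with 12 residual and 3.84 prior degrees of freedom. P-values were adjusted by Benjamini-Hochberg over all 12078 genes, at a threshold of 0.05. The procedure was also run on simulated data with independent genes, few of them changed. Those settings differ from these data, so the run does not measure error rates here. The number of arrays limits the precision, and arrays have no read depth. Bright probe sets can saturate, which shrinks differences at the top of the scale, and GCRMA sets those at the bottom by its background model, so dim changes were also computed with values under 4 set to 4.

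The members, the lists and the tests were chosen with earlier results of these data known. Named were all members by every probe set, the 3 tested genes with the highest Pearson r to each member, Sirt1, and from each list up to 2 called genes per direction and comparison, of which not all are printed. The 19 lists held 267 entries, of which 245 were matched, 2 by another symbol, and 215 were tested. The main fit did not pair arrays by replicate number. The correlation of deviations of same-numbered arrays ran from -0.321 to 0.199 over 24 pairs, with 5 over 0.1. Arrays of different numbers were not compared in this way, so these values cannot decide whether the numbers mark pairs. Alternatives changed the filter, floor, samples fitted, variance model, array weights, scaling, probe sets, moderation and pairing, and left out each array, the 5 muscle arrays and, added after seeing the data, both high fat replicates 1; a centring on 520 bright genes was also added then.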

Additional observations from a re-analysis of the deposited data

Results flagged for a closer look

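In 3 cases a single value lay far from the rest of its group, among 28 groups of 4 values examined, where chance gives about 1 in 20. Adipoq read 13.186 on knockout high fat replicate 1, while the other 3 arrays lay between 13.423 and 13.452. Retn read 12.502 on wild-type high fat replicate 1, against 12.85 to 12.912 on the other 3. Rbp4 read 12.729 on knockout low fat replicate 4, against 12.05 to 12.135.

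The response to diet differed between the genotypes for 2 members by the test of the interaction, Lep (-1.154) and Rbp4 (-0.7142). Among the genes of the members' pathways called for the interaction were Retnla (-1.076), Aldh1a2 (-1.945), Stra6l (1.946) and Aplnr (-0.9787). Of these, Stra6l would not have passed the filter on dim genes without the high fat knockouts. A negative value means that high fat minus low fat was lower in knockouts than in wild types. For Lep and Aplnr it was a smaller rise, and for Rbp4 a larger fall (-1.04 against -0.33). Retnla and Aldh1a2 rose in wild types and fell in knockouts.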

How the results depend on the processing

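Of 770 alternatives of the members' results, 721 kept direction and side of the threshold, 22 lost a call, 8 gained one and 19 turned the sign of a value that was not called. The Lep calls (diet in wild type, knockout on low fat, interaction) and both pairwise Rbp4 calls held in all alternatives run. The count of members called became 4 with array weights and 3 with a trended, robust variance, without moderation or with averaged probe sets for the diet in knockout fat, and 2 with median centring for the diet in wild type. For the interaction it became 1 without moderation, without the muscle arrays, without both high fat replicates 1 and with bright-gene centring. It was 1 without the muscle arrays for the diet in knockout fat and the genotype on high fat, and 1 without both replicates 1 for the latter. Leaving out 1 array gave 1 to 2 in each of these 4 comparisons. Lep gained a call for the diet in knockout fat with array weights (0.44, adjusted p = 0.00646).

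Signs turned for values that were not called. Adipoq for the diet in wild type was 0.014 with array weights, 0.019 with quantile normalization and -0.065 to 0.0066 with 1 array left out. Adipoq for the knockout on low fat was -0.053 with median centring, -0.021 without the muscle arrays, -0.035 with bright-gene centring and -0.018 to 0.041 with 1 array left out. Angptl4 for the knockout on low fat was 0.16 with averaged probe sets and 0.033 without the muscle arrays, and Rbp4 there was 0.003 without the muscle arrays. On high fat, leaving out 1 array gave -0.070 to 0.12 for Lep and -0.048 to 0.13 for Angptl4. The Lep minus Adipoq change on high fat was 0.19 with quantile normalization (exact permutation adjusted p = 0.0286). With an array left out no p-value of that test is given here, and the changes kept their sign. The cause of these shifts was not tested, except that leaving out arrays also lowers the number of samples.

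With the replicate number as a block, the counts of members called stayed at 1, 2, 1, 2 and 2 in the order diet in wild type, diet in knockout, low fat, high fat and interaction, and no member call changed. For all genes, median centring turned the split of calls for the diet in wild type from 2472 higher and 1832 lower to 2050 and 2552, and quantile normalization to 2062 and 2539. For the genotype on low fat the split of 1410 and 874 became 1151 and 1274, or 1123 and 1281, and for the interaction that of 618 and 951 became 853 and 868, or 989 and 885. Array weights called 2798 and 2556 for the diet in knockouts (against 1887 and 1636), 1844 and 1580 for the genotype on high fat (1036 and 782) and 1113 and 1368 for the interaction, and fitting the compared groups alone called 881 and 411 on low fat. Of 3227 alternatives for 105 list gene results, 209 lost the call and none turned its sign.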
